A study of Homo sapiens with 6 samples.

Results

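BRAF, CDKN2A, CDKN2B, MTAP and SMAD4, genes whose activation or loss is known from pancreatic cancer, were examined in BxPC-3, an established human pancreatic cancer cell line. The genes were matched by symbol, and all 5 symbols were found among the 26255 gene symbols of each file. RNA-seq was performed in 6 libraries, 2 in each of 3 groups. Parent cells received no treatment, NC-1 cells a negative control, and miR-4711-5p cells this miRNA, and RNA was compared 36 h after transfection. All groups are the same cell line, so the alterations that BxPC-3 carries are shared by treated and control libraries. The paper lists 1 NC duplex and a further control called NC2, and which of them NC-1 was is known only from its name. The comparisons asked whether any of these genes was expressed in this line and whether its level moved with miR-4711-5p treatment.

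These genes sit at different points of growth control. BRAF is a kinase of the RAF family that passes growth signals on to MEK and ERK. CDKN2A encodes both p16INK4a, an inhibitor of CDK4 and CDK6, and p14ARF, which holds back MDM2, and CDKN2B encodes p15INK4b, a further inhibitor of the same kinases. MTAP, the neighbour of CDKN2A, recycles methylthioadenosine, a by-product of polyamine synthesis that inhibits the methyltransferase PRMT5 when it builds up. SMAD4 is the shared partner of the receptor-regulated SMADs and carries TGF-β and BMP signals into the nucleus. As background, BxPC-3 is known for an in-frame deletion in BRAF and for loss of CDKN2A and SMAD4. The values here are levels per gene and show neither DNA copies nor the sequence of a transcript.

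BRAF was expressed in all 6 libraries, and the other 4 genes were listed at 0 in all 6. The unit is FPKM, a fragment count scaled to the library size and to how long the exons of the gene are, so levels can be compared between genes. CDKN2A was listed at 0 in Parent replicates 1 and 2, NC-1 replicates 1 and 2 and miR-4711-5p replicates 1 and 2. CDKN2B, MTAP and SMAD4 were listed at 0 in the same 6 libraries. Of all 26255 symbols, 7097 (27%) were at 0 in every library, as were 2602 of 18115 autosomal protein-coding genes matched by symbol (14.4%). A value of 0 in these files is not by itself proof that a gene was silent. A deleted gene, a silent gene and a gene for which the authors' software gave no estimate cannot be told apart from the 0 alone. For this reason no mean, spread or fold change is given for these 4 genes.

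BRAF was at 6.86 and 7.65 FPKM in Parent, at 8.05 and 7.74 FPKM in NC-1, and at 8.43 and 8.02 FPKM with miR-4711-5p. Both miR-4711-5p libraries and both NC-1 libraries were above both Parent libraries, while the NC-1 and miR-4711-5p libraries overlapped. The group means were 7.25 ± 0.56 FPKM in Parent, 7.90 ± 0.22 FPKM in NC-1 and 8.23 ± 0.29 FPKM in treated cells (SD, n = 2 each). In Parent, the mean of BRAF exceeded that of 35.9% of the 12040 genes tested, those averaging 1 FPKM or more across all libraries. BRAF was thus expressed below the median of the tested genes in Parent, and the plot of the 5 genes by library shows it beside the genes at 0.

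**Figure D1:**
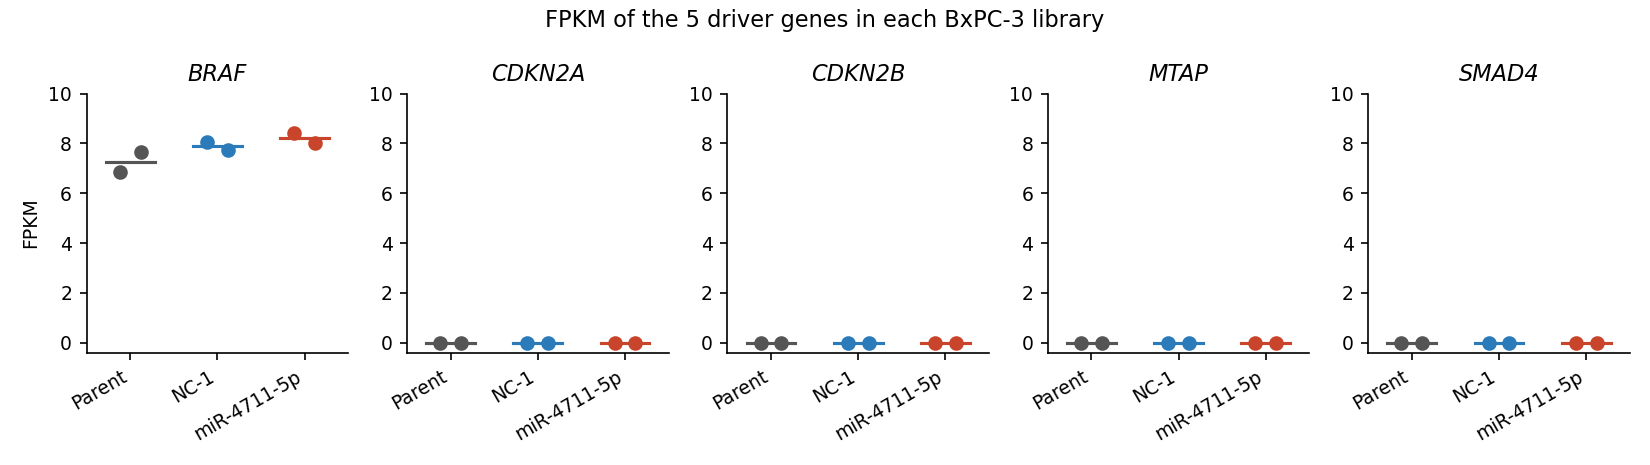
FPKM (vertical axis) of BRAF, CDKN2A, CDKN2B, MTAP and SMAD4 in each library of the 3 groups, with points for libraries and lines for group means (n = 2). BRAF lay between 6.86 and 8.43 FPKM, and the other 4 genes were listed at 0 in all 6 libraries.

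No comparison of BRAF passed the test. On log2(FPKM + 1), BRAF differed by 0.16 ± 0.07 (SE) between miR-4711-5p and Parent, with a 95% interval from -0.0046 to 0.33 (limma, adjusted p = 0.104). It differed by 0.05 ± 0.07 between miR-4711-5p and NC-1, with an interval from -0.11 to 0.22 (adjusted p = 0.593), and by 0.11 ± 0.07 between NC-1 and Parent (adjusted p = 0.285). As ratios of mean FPKM these were 1.13-fold, 1.04-fold and 1.09-fold. A p above the threshold does not show that BRAF was unchanged, and the intervals give the differences that these libraries leave possible. Among all genes tested, 43.4% were called between miR-4711-5p and Parent, 39.6% between miR-4711-5p and NC-1, and 27.2% between NC-1 and Parent, at an adjusted p under 0.05. Of all genes, 18.7% were called higher and 24.7% lower in the first of these, 18.4% and 21.2% in the second, and 12.1% and 15.1% in the third. These comparisons share libraries in pairs and are not independent. With 2 libraries a group, an exact permutation test of single values cannot go below p = 0.333, so the test rests on the spread that limma borrows from all genes. Nothing in the sources used here says whether the 2 libraries of a group came from separate cultures, so p-values measure the spread between these libraries, which may be technical.

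The BRAF comparison with Parent depended on how the libraries were scaled. The deposited FPKM summed to between 543074 and 550772 in Parent, to 515348 and 515688 in NC-1, and to 493145 and 499659 with miR-4711-5p. When every library was rescaled to the same sum, as in TPM, the difference of BRAF between miR-4711-5p and Parent was 0.30 and passed the test (adjusted p = 0.0174). On that scale the median of all genes moved to 0.11 in this comparison, from -0.01 as deposited, and called genes split 4014 higher to 1783 lower in place of 2255 higher to 2975 lower. Relative to the median gene, BRAF was 0.17 higher as deposited and 0.19 higher on the TPM scale. The 2 genes whose log2(FPKM + 1) followed that of BRAF most closely over the 6 libraries were RBM25, a splicing factor gene, and TTC14, with Pearson correlations of 0.993 and 0.992. The third was AMN1, at 0.990. Of the 12039 other genes, 194 had a correlation over 0.9 with BRAF, so such likeness was common over 6 points that share their libraries.

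ARAF, the X-linked relative of BRAF, was the more abundant kinase of the pair at the RNA level. ARAF was at 21.5 and 20.4 FPKM in Parent, 18.2 and 20.1 in NC-1 and 15.6 and 16.0 with miR-4711-5p. It exceeded BRAF 3.13-fold and 2.66-fold in Parent, 2.26-fold and 2.60-fold in NC-1, and 1.85-fold and 1.99-fold with miR-4711-5p. The ratio was thus lower in both miR-4711-5p libraries than in the other 4. ARAF fell with miR-4711-5p by 0.39 ± 0.06 against Parent (adjusted p = 0.0027) and by 0.26 ± 0.06 against NC-1 (adjusted p = 0.015). The first call held when any 1 library was left out, while the second ended without NC-1 replicate 2 or either miR-4711-5p library (adjusted p of 0.0659 to 0.0922). In RNA from whole cultures, a lower level in each cell and fewer cells that express a gene cannot be told apart.

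To set these levels beside the sequence of the miRNA, matches to its seed were searched in BRAF and its partners. The mature miRNA, from RefSeq, lies on the minus strand of chromosome 1 at chr1:59733269-59733291 of GRCh38.p14, and its seed, bases 2 to 8, is in capitals.
hsa-miR-4711-5p: uGCAUCAGgccagaagacaugag
The matches searched were CTGATGC (7mer-m8), TGATGCA (7mer-A1) and CTGATGCA (8mer), on the sense strand of the coding transcripts that GENCODE v44 places on GRCh37, the build of the deposited data. The shorter forms are contained in the 8mer, which was counted once. BRAF lies on the minus strand of chromosome 7 at chr7:140419127-140624729. Its canonical transcript has a 3′ UTR of 3932 bases with 1 match, which is in 1 of 5 transcripts. A separate, longer 3′ UTR of 7167 bases has 2 other matches, each in 2 of 5 transcripts. The longer 3′ UTR does not hold the match of the canonical one. A further match lies in the coding sequence of 2 of 5 transcripts, at chr7:140485588-140485594, and is not shown. The matches in the 3′ UTR are shown because BRAF is the only expressed gene of the 5, with the match in capitals and 11 bases on each side.
BRAF canonical 3′ UTR, chr7:140433472-140433478: cttacctctcaTGATGCAtattttagcaa
BRAF longer 3′ UTR, chr7:140422218-140422224: ctgtgccttcaTGATGCAataaaaaagct
BRAF longer 3′ UTR, chr7:140421468-140421474: gggatggattaCTGATGCccatcggtagt
A match in a 3′ UTR of this length was common: 751 of 2265 other genes with a canonical 3′ UTR of 2949 to 4915 bases held one (33.2%), against 15.8% of all 19064 genes. BRAF, whose transcripts differ in these matches, was at 7.74 and 8.05 FPKM in NC-1 and at 8.02 and 8.43 FPKM with miR-4711-5p. Which of these 3′ UTRs the cells use was not measured. The end of the longer form overlaps NDUFB2, a gene of the opposite strand at 181 to 229 FPKM, and whether the authors counted by strand is not given in the sources used here.

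Of 62 partner genes tested, 16 were called lower with miR-4711-5p in both comparisons, and 6 of these 16 have a match in the canonical 3′ UTR. All matches of these 6 in the canonical 3′ UTR are shown, so that they can be read beside those of BRAF. ARAF, CDKN2C and ODC1 each have 1 further match in the coding sequence, an 8mer in CDKN2C, which is not shown.
ARAF 3′ UTR, chrX:47430942-47430948, plus strand: tcgtctctgccCTGATGCtgcctcaggat
BMPR1A 3′ UTR, chr10:88684207-88684213, plus strand: taacatgaaagCTGATGCcaaggccaaaa
CDKN2C 3′ UTR, chr1:51440268-51440274, plus strand: aatggtttgtcCTGATGCttttgtctaat
ODC1 3′ UTR, chr2:10580729-10580735, minus strand: tagggtcgccaTGATGCAgccatatggaa
SMAD3 3′ UTR, chr15:67483788-67483795, plus strand: tgctccagattCTGATGCAtacggctatat
SMAD3 3′ UTR, chr15:67484555-67484561, plus strand: ggagaggcttcCTGATGCctcatctgcag
SRM 3′ UTR, chr1:11114900-11114906, minus strand: aggcgccaccaCTGATGCcacccaggacc
The other 10 genes lower in both, among them ADI1, ID1, ETV5 and CDK4, have no match in the canonical 3′ UTR. The 3 genes higher in both (DUSP6, CCN2 and ID3) have none, and of the 43 remaining genes 6 have one (AMD1, CDK6, MDM2, MDM4, SMAD2 and TGFBR2). CDK6 and TGFBR2, each with a match, rose in treated cells against Parent. Of the genes called against Parent, 7 of 23 lower and 2 of 13 higher had a match, beside 12 of all 62 tested. With miR-4711-5p, TGFBR2 was lower than in NC-1 by 0.60 ± 0.04 (limma, adjusted p = 8.5e-05). Against NC-1, 9 of 22 genes called lower had a match, MDM2, SMAD2 and TGFBR2 included. Of 6 called higher 0 had one, and of 34 not called 3 had one. Between NC-1 and Parent, neither treated with the miRNA, 4 of 9 genes called higher had a match (CDK6, MDM2, SMAD3 and TGFBR2). Of 9 called lower 2 had one, and of 44 not called 6 had one. MDM2 and TGFBR2 were 0.39 and 0.80 higher in NC-1 than in Parent. With miR-4711-5p, none of MDM2, SMAD2 and TGFBR2 was called lower against Parent. Of other genes with a 3′ UTR of similar length (within 25%), the share that held a match ranged from 2.81% for the length of SRM to 37% for that of SMAD3. A match is a description of letters and was not tested as a site. SMAD4 and CDKN2B had no match in a 3′ UTR or in their coding sequence. MTAP had 2 matches in a 3′ UTR of 6452 bases, found in 1 of 3 transcripts with a 3′ UTR, and 1 in its coding sequence, and CDKN2A had 1 in its coding sequence, but both genes were listed at 0.

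Among the kinases and scaffolds that work beside and after BRAF, ARAF and MAPK3 fell against Parent. Of 6 partner genes (ARAF, KSR1, KSR2, MAP2K1, MAP2K2 and MAPK3), KSR2 was listed at 0 in all 6 libraries and 5 were tested. With miR-4711-5p 2 fell against Parent (40% called, against 43.4% of all genes) and 1 fell against NC-1 (20%, against 39.6%), while limma called 0 between NC-1 and Parent (27.2% of all genes), where 0 also had an unadjusted p under 0.05. With 1 library left out these counts ranged from 1 to 2, from 0 to 1 and from 0 to 1, the last through KSR1, which was called without NC-1 replicate 1. MAPK3, the gene of ERK1, named after its values were seen, was at 23.2 and 26.7 FPKM in Parent, 23.7 and 23.1 in NC-1 and 19.3 and 21.9 with miR-4711-5p. It fell by 0.26 ± 0.08 against Parent (adjusted p = 0.0381), a call that ended on the TPM scale (adjusted p = 0.24) and without either NC-1 library, Parent replicate 2 or miR-4711-5p replicate 1 (adjusted p of 0.065 to 0.223). The MEK genes MAP2K1 and MAP2K2 lay between 58.8 and 69.4 FPKM in all libraries and were called in no comparison. The median difference of the 5 genes was -0.06 against Parent and -0.05 against NC-1, beside -0.01 and 0.00379 over all genes tested.

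Genes known to follow ERK activity moved in both directions. Of 10 such genes, all tested, 5 rose and 4 fell with miR-4711-5p against Parent (90% called, against 43.4% of all genes), and 1 rose and 4 fell against NC-1 (50%, against 39.6%). The count was 5 and 4 on the TPM scale as well, and fell to 6 of 10 when miR-4711-5p replicate 1 was left out. ETV5, an ETS factor that ERK induces, was at 5.58 and 5.95 FPKM in Parent, 5.67 and 5.79 in NC-1 and 2.79 and 3.47 with miR-4711-5p. Its miR-4711-5p libraries lay under all 4 controls, by 0.71 ± 0.09 against both (adjusted p of 0.00102 and 0.00121). Its relative ETV4 fell by 0.43 ± 0.08 and 0.47 ± 0.08, and CCND1, the gene of cyclin D1, by 0.42 ± 0.06 and 0.40 ± 0.06. DUSP4, a phosphatase of MAP kinases, fell by 0.32 ± 0.06 against Parent and by 0.28 ± 0.06 against NC-1, where the call ended without NC-1 replicate 1 or either miR-4711-5p library (adjusted p of 0.0578 to 0.062). DUSP6, the phosphatase of ERK, went the other way, from 63.6 and 65.9 FPKM in Parent and 67.8 and 70.5 in NC-1 to 77.3 and 79.9 with miR-4711-5p. It rose by 0.28 ± 0.05 against Parent and by 0.18 ± 0.05 against NC-1, the latter ending without NC-1 replicate 2 or either miR-4711-5p library (adjusted p of 0.0581 to 0.112). None of the 10 genes was called between NC-1 and Parent by limma as deposited (5 rose on the TPM scale), where 4 had an unadjusted p under 0.05. The list was therefore not of 1 direction, and its median difference was 0.09 against Parent and -0.09 against NC-1.

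The zeros of CDKN2A, CDKN2B and MTAP lay together in a long stretch of chromosome 9 without expressed genes. The cluster spans chr9:21802635-22009304 of GRCh37, from the start of MTAP to the end of CDKN2B. The nearest genes with at least 1 FPKM in Parent were FOCAD on one side, at 6.18 to 7.08 FPKM in the 6 libraries, and TUSC1 on the other, at 3.12 to 5.01 FPKM. TUSC1 lies beyond the 3 Mb that were searched on each side and was looked up after the values were seen. Between the end of FOCAD and the start of TUSC1 are 4.68 Mb and 24 protein-coding genes, the 3 of the cluster included, of which 22 were listed at 0 in all 6 libraries. Most of the others are interferon genes of the chromosome 9 cluster, which unstimulated epithelial cells hardly express. KLHL9, an adaptor of a ubiquitin ligase that many tissues express, was among those at 0, as were DMRTA1, ELAVL2 and IZUMO3 on the far side. The 2 genes above 0 were HACD4, at 0 to 0.231 FPKM, and IFNB1, the gene of interferon β.

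IFNB1 was listed at 0 in the 4 Parent and NC-1 libraries and at 0.613 and 0.234 FPKM in the miR-4711-5p libraries. It starts 0.726 Mb before MTAP, just outside the unbroken run of zeros, and no fold change is given against a group at 0. Non-coding neighbours within the stretch were at or near 0 too. MIR31HG was listed at 0 in all 6 libraries, and CDKN2B-AS1, the antisense RNA of CDKN2B, at 0 in both Parent libraries and NC-1 replicate 1 and at 0.029, 0.0231 and 0.0471 FPKM in NC-1 replicate 2 and miR-4711-5p replicates 1 and 2. Counted along the genome, CDKN2A stood in a run of 22 consecutive autosomal protein-coding genes under 0.1 FPKM in every library, from IFNW1 to IZUMO3. Of 2462 such runs 6, this one included, were at least as long, and the longest held 43 genes. SMAD4 stood in a run of 7 such genes, from MAPK4 to DCC, and 56 of the 2462 runs, its own included, were at least as long. These counts were made after the values were seen.

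SMAD4 was listed at 0 between neighbours that were also at or near 0, inside a shorter stretch. It lies at chr18:48554898-48611415, and 11 of the 20 protein-coding neighbours within 3 Mb that the files hold were at or above 1 FPKM in Parent (55%). Expressed genes ended at SKA1, a kinetochore gene at 7.21 to 8.78 FPKM, and began again at MBD2, a gene of a methyl-CpG-binding protein at 12.8 to 17.7 FPKM, 3.76 Mb away. MBD2 lies just past the 3 Mb searched and was looked up after the values were seen. Of the 7 genes between them in the files, SMAD4 included, 4 were at 0 in all 6 libraries, namely MAPK4, ELAC1, SMAD4 and MEX3C. ME2, the mitochondrial malic enzyme gene that lies next to ELAC1 and is broadly expressed in other cells, was at 0.0263 FPKM in miR-4711-5p replicate 1 and at 0 in the other 5 libraries. MRO was at 0.0119 FPKM in the same library and at 0 elsewhere. DCC, the netrin receptor gene, lay between 0.00601 and 0.0503 FPKM in all 6. SMAD7, an inhibitory SMAD gene that starts 2.11 Mb before SMAD4, was expressed at 2.67 to 4.17 FPKM.

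BRAF had no such gap around it. Of 67 protein-coding neighbours within 3 Mb that the files hold, 28 were at or above 1 FPKM in Parent (41.8%), and 9 were at 0 in all 6 libraries. The genes on either side, NDUFB2, a subunit gene of respiratory complex I, and MRPS33, of the mitochondrial ribosome, were at 181 to 229 FPKM and at 61.6 to 68.6 FPKM. Around the CDKN2A cluster the share at or above 1 FPKM was 8 of 32 (25%), with 20 at 0 in every library. These shares describe the neighbourhoods, and gene content differs between them, with many interferon genes beside CDKN2A. The map of the 3 loci shows the zeros as open points between expressed genes.

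**Figure D2:**
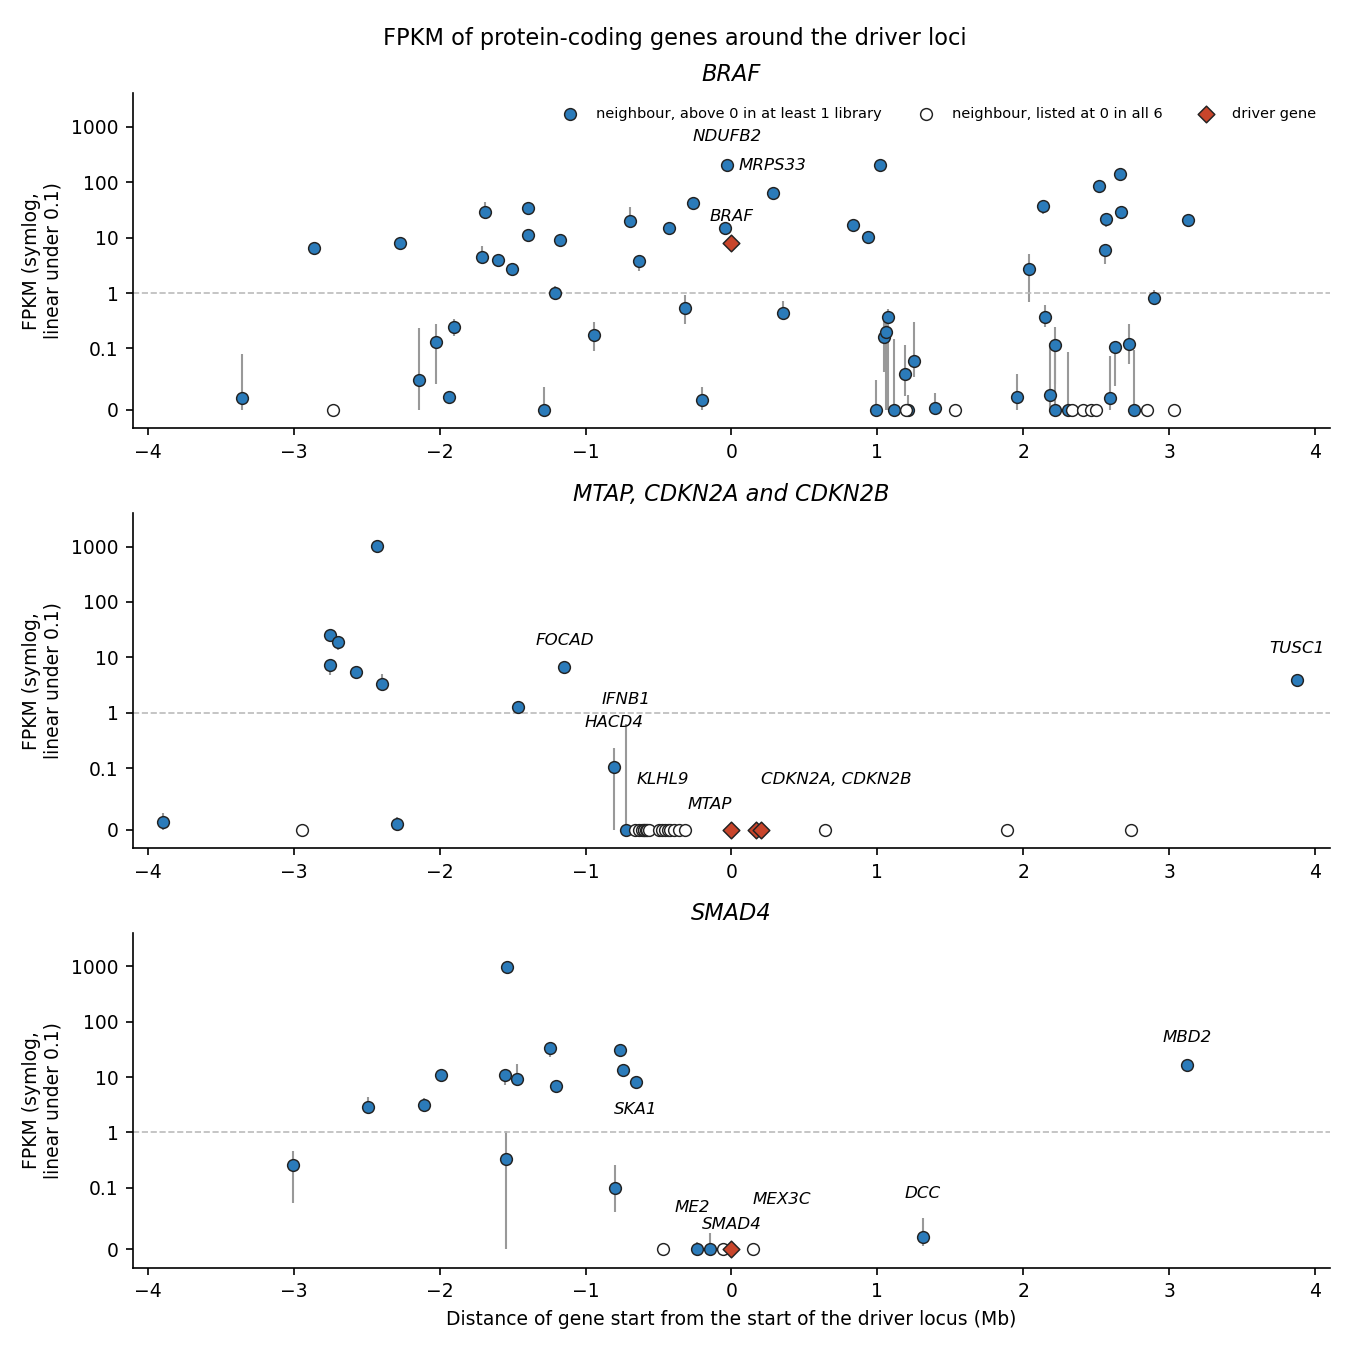
FPKM (vertical axis, symlog scale that is linear under 0.1) of protein-coding genes against distance in Mb from the start of BRAF, of MTAP and of SMAD4. Points give the median and lines the range over 6 libraries. The dashed line marks 1 FPKM. Open points and the diamonds of MTAP, CDKN2A, CDKN2B and SMAD4 lie at 0, between FOCAD and TUSC1 and between SKA1 and MBD2.

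With CDKN2A and CDKN2B listed at 0, their relatives CDKN2C and CDKN2D were the INK4 genes with a measured level. CDKN2C, which encodes p18INK4c, was at 7.56 and 8.004 FPKM in Parent, 6.14 and 5.70 in NC-1 and 4.39 and 3.77 with miR-4711-5p. The 3 groups did not overlap. CDKN2C fell by 0.79 ± 0.08 against Parent and by 0.45 ± 0.08 against NC-1 (adjusted p of 0.000383 and 0.00533), and both calls held when any 1 library was left out. It was also 0.34 ± 0.08 lower in NC-1 than in Parent (adjusted p = 0.024), a call that ended when any of the 4 libraries compared was left out (adjusted p of 0.0684 to 0.112) and on the TPM scale (adjusted p = 0.0605). CDKN2D, the gene of p19INK4d, ranged from 2.04 to 4.08 FPKM, with the widest spread inside Parent, and was called in no comparison.

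The kinases that INK4 proteins inhibit were both expressed and moved in opposite directions against Parent. CDK4 was at 134 and 133 FPKM in Parent, 118 and 121 in NC-1 and 103 and 101 with miR-4711-5p. It fell by 0.38 ± 0.04 against Parent and by 0.22 ± 0.04 against NC-1 (adjusted p of 0.000332 and 0.00407). CDK6 was at 24.96 and 23.96 FPKM in Parent, 36.8 and 35.1 in NC-1 and 39.5 and 34.6 with miR-4711-5p. It rose by 0.58 ± 0.07 against Parent (adjusted p = 0.000725) but differed by 0.04 ± 0.07 from NC-1, with an interval from -0.13 to 0.21 (adjusted p = 0.692), and was as high in NC-1. The ratio of CDK4 to CDK6 was 5.38 and 5.53 in Parent, 3.21 and 3.43 in NC-1, and 2.61 and 2.93 with miR-4711-5p. Of 15 genes of this control point of the cell cycle 13 were tested, and 3 rose and 4 fell against Parent (53.8% called, against 43.4% of all genes), 5 fell against NC-1 (38.5%, against 39.6%), and 4 rose and 2 fell between NC-1 and Parent (46.2%, against 27.2%). In the last comparison 5 rose and no gene fell on the TPM scale, and 2 stayed called without Parent replicate 2. MDM2, the ubiquitin ligase that p14ARF holds back, was at 9.30 and 10.1 FPKM in Parent, 13.8 and 12.2 in NC-1 and 8.89 and 7.69 with miR-4711-5p. It was lower with miR-4711-5p than in NC-1 by 0.59 ± 0.09 (adjusted p = 0.00205) and was named for its role after its values were seen. Against Parent it differed by -0.21 (adjusted p = 0.0974), and it was 0.39 ± 0.09 higher in NC-1 than in Parent (adjusted p = 0.0202), a call that ended without NC-1 replicate 1 or either Parent library (adjusted p of 0.0527 to 0.117).

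The genes that work around MTAP were all expressed. Of 15 genes of methionine salvage, polyamine synthesis and the PRMT5 complex, 8 fell and 7 did not pass the test with miR-4711-5p against Parent (53.3% called, against 43.4% of all genes), but 3 rose and 3 fell on the TPM scale, and 3 calls were left without miR-4711-5p replicate 1. Against NC-1, 2 rose and 3 fell (33.3%, against 39.6%). Between NC-1 and Parent 6 were lower and none was higher (40%, against 27.2%), but 1 was higher and 3 lower on the TPM scale, and 3 calls were left without Parent replicate 2. ADI1, the dioxygenase gene of the salvage steps that MTAP opens, was at 25.4 and 25.9 FPKM in Parent, 16.4 and 18.1 in NC-1 and 9.34 and 9.95 with miR-4711-5p. The groups were separate, and ADI1 was lower with miR-4711-5p by 1.32 ± 0.06 against Parent and by 0.78 ± 0.06 against NC-1 (adjusted p of 1.16e-05 and 0.000142). It was also 0.55 ± 0.06 lower in NC-1 than in Parent (adjusted p = 0.00212), and all 3 calls held when any 1 library was left out. The other genes of the salvage steps, MRI1, APIP and ENOPH1, lay between 5.64 and 23.1 FPKM and were called in no comparison.

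Of the genes of polyamine synthesis, the source of the substrate of MTAP, ODC1 and SRM were lower with miR-4711-5p in both comparisons. ODC1, the gene of ornithine decarboxylase, was at 62.1 and 60.4 FPKM in Parent, 60.7 and 55.5 in NC-1 and 46.7 and 45.9 with miR-4711-5p, and fell by 0.40 ± 0.05 and 0.32 ± 0.05 against Parent and NC-1. SRM, the gene of spermidine synthase, fell by 0.31 ± 0.05 and 0.32 ± 0.05. These 4 calls held when any 1 library was left out. AMD1, of the decarboxylase that supplies the aminopropyl groups, was lower by 0.25 ± 0.07 against Parent (adjusted p = 0.0204), a call that ended on the TPM scale (adjusted p = 0.221) and without Parent replicate 2 or either miR-4711-5p library (adjusted p of 0.0693 to 0.12), and differed by 0.03 from NC-1 (adjusted p = 0.734). SMS, the gene of spermine synthase, lay between 63.9 and 74.1 FPKM and was called in no comparison. AMD1 and SMS were named after their values were seen. PRMT5 was at 85.0 and 81.0 FPKM in Parent, 62.2 and 62.8 in NC-1 and 74.0 and 74.4 with miR-4711-5p. It was thus lowest in NC-1, by 0.40 ± 0.04 under Parent (adjusted p = 0.00176), and was higher with miR-4711-5p than in NC-1 by 0.24 ± 0.04 (adjusted p = 0.00435). Against Parent it was lower by 0.16 ± 0.04 with miR-4711-5p (adjusted p = 0.022), a call that ended on the TPM scale (adjusted p = 0.688) and without Parent replicate 1 or either miR-4711-5p library (adjusted p of 0.0882 to 0.106). MAT2A, the gene of methionine adenosyltransferase, was at 84.2 and 84.9 FPKM in Parent, 83.9 and 80.4 in NC-1 and 90.7 and 90.2 with miR-4711-5p. It rose by 0.14 ± 0.04 against NC-1 (adjusted p = 0.0365), which ended without NC-1 replicate 2 or either miR-4711-5p library (adjusted p of 0.129 to 0.145), and with the replicate number as a block (adjusted p = 0.0552).

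**Figure D3:**
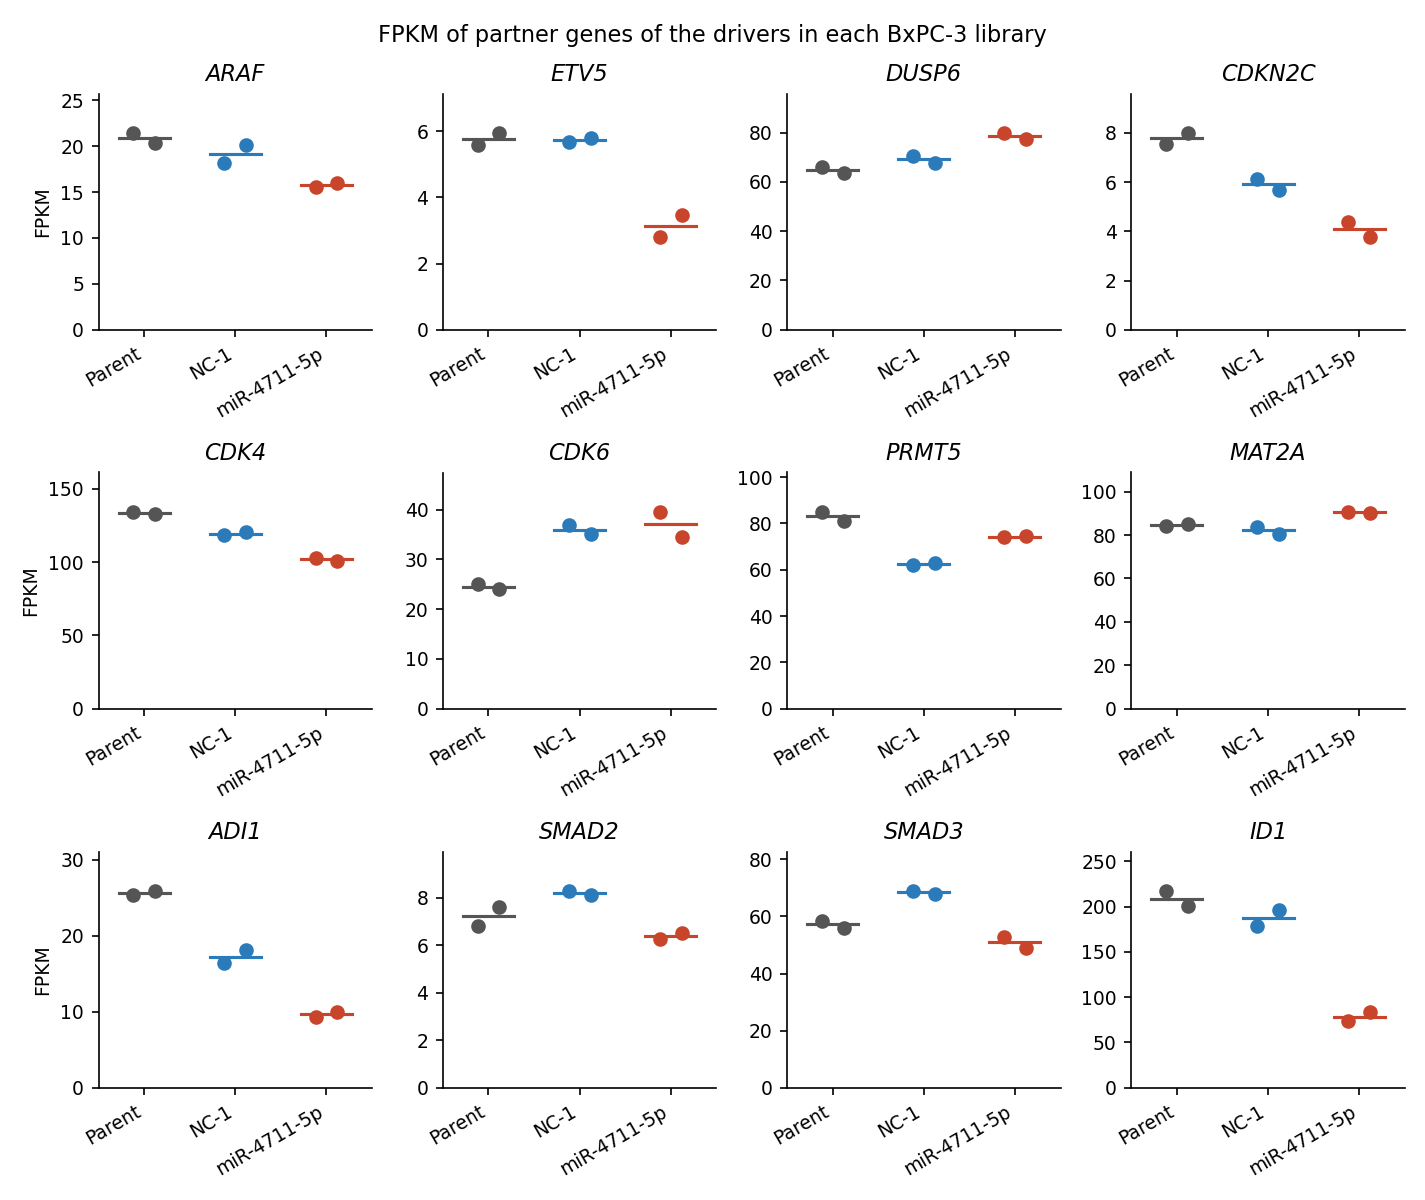
FPKM (vertical axes, starting at 0) of 12 partner genes of the driver genes in each library of the 3 groups, with points for libraries and lines for group means (n = 2). ARAF, ETV5, CDKN2C, CDK4, ADI1, SMAD2, SMAD3 and ID1 were lower in both miR-4711-5p libraries than in all 4 control libraries. DUSP6 and MAT2A were higher.

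The partners of SMAD4 were expressed although SMAD4 itself was listed at 0. SMAD3, a receptor-regulated SMAD that binds SMAD4 on TGF-β signals, was at 58.4 and 56.0 FPKM in Parent, 68.9 and 68.0 in NC-1 and 52.8 and 48.9 with miR-4711-5p. SMAD2, which serves the same receptors, was at 6.81 and 7.62 FPKM in Parent, 8.28 and 8.09 in NC-1 and 6.27 and 6.49 with miR-4711-5p. SMAD3 exceeded SMAD2 by 7.36-fold to 8.58-fold in the 6 libraries. SMAD3 was lower with miR-4711-5p than in NC-1 by 0.42 ± 0.05 (adjusted p = 0.000863), a call that held when any 1 library was left out. Against Parent it was lower by 0.17 ± 0.05 (adjusted p = 0.037), which ended on the TPM scale (adjusted p = 0.672) and without any library but miR-4711-5p replicate 1 (adjusted p of 0.0539 to 0.202). It was higher in NC-1 than in Parent by 0.26 ± 0.05 (adjusted p = 0.0133), which ended without either NC-1 library or Parent replicate 2 (adjusted p of 0.0505 to 0.0665). SMAD2 was lower with miR-4711-5p than in NC-1 by 0.32 ± 0.07 (adjusted p = 0.011), which ended without NC-1 replicate 1 or either miR-4711-5p library (adjusted p of 0.0516 to 0.0775), and differed by -0.15 from Parent (adjusted p = 0.121).

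Among SMADs, receptors and corepressors, 14 of 15 genes were tested. Against Parent 1 rose and 4 fell with miR-4711-5p (35.7% called, against 43.4% of all genes), but 4 rose and 1 fell on the TPM scale, and 1 call was left without miR-4711-5p replicate 1. Against NC-1 1 rose and 8 fell (64.3%, against 39.6%), with a median difference of -0.30 beside 0.00379 over all genes tested. On the TPM scale this count was 1 and 6, and with 1 library left out it ranged from 5 to 8 called. Between NC-1 and Parent 3 rose and 1 fell (28.6%, against 27.2%), and 7 rose on the TPM scale. The median difference of these genes was -0.08 between miR-4711-5p and Parent and 0.18 between NC-1 and Parent, beside -0.01 over all genes in each. The genes that fell in both miR-4711-5p comparisons were SMAD3, SMAD5, SMAD6 and BMPR1A, of which SMAD5, SMAD6 and BMPR1A belong to BMP signalling. SMAD5 was at 6.51 and 6.94 FPKM in Parent, 7.63 and 8.002 in NC-1 and 5.27 and 5.26 with miR-4711-5p, lower by 0.30 ± 0.07 and 0.49 ± 0.07. Its call against Parent ended without Parent replicate 2 or either miR-4711-5p library (adjusted p of 0.0508 to 0.0567) and on the TPM scale (adjusted p = 0.0595). SMAD6 fell by 0.41 ± 0.09 and 0.42 ± 0.09, and these calls ended without miR-4711-5p replicate 1, and without Parent replicate 1 or NC-1 replicate 2 respectively (adjusted p of 0.0528 to 0.0727). BMPR1A fell by 0.25 ± 0.07 and 0.23 ± 0.07, and each call ended when any of the 4 libraries compared was left out (adjusted p of 0.0535 to 0.132) and on the TPM scale (adjusted p of 0.149 and 0.0639).

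Genes known as targets of SMAD signals did not move together. Of 9 such genes 8 were tested, and 4 rose and 2 fell against Parent (75% called, against 43.4%), and 2 rose and 3 fell against NC-1 (62.5%, against 39.6%). Between NC-1 and Parent 3 rose and none fell (37.5%, against 27.2%). ID1, a target of BMP and SMAD signals that blocks differentiation factors, was at 217 and 200.2 FPKM in Parent, 178 and 197 in NC-1 and 73.4 and 83.5 with miR-4711-5p. Both miR-4711-5p libraries were far under the 4 controls, by 1.40 ± 0.08 against Parent and by 1.25 ± 0.08 against NC-1 (adjusted p of 2.10e-05 and 3.81e-05). ID3, of the same family, went the other way, from 4.0 and 4.31 FPKM in Parent and 4.09 and 3.85 in NC-1 to 6.74 and 6.29 with miR-4711-5p, a rise by 0.54 ± 0.08 and 0.59 ± 0.08. TGFBI, a matrix protein gene that TGF-β induces, fell by 0.51 ± 0.04 and 0.47 ± 0.04. CCN2, listed under its older symbol CTGF, was at 1.68 and 1.80 FPKM in Parent, 4.94 and 3.70 in NC-1 and 7.13 and 6.77 with miR-4711-5p. It rose by 1.54 ± 0.12 against Parent and by 0.59 ± 0.12 against NC-1, the latter ending without miR-4711-5p replicate 1 (adjusted p = 0.0564), and was 0.95 ± 0.12 higher in NC-1 than in Parent. TGFBR2, a TGF-β receptor gene named after its values were seen, was at 43.7 and 43.6 FPKM in Parent, 78.5 and 75.5 in NC-1 and 51.2 and 50.01 with miR-4711-5p, and was thus highest in NC-1.

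**Figure D4:**
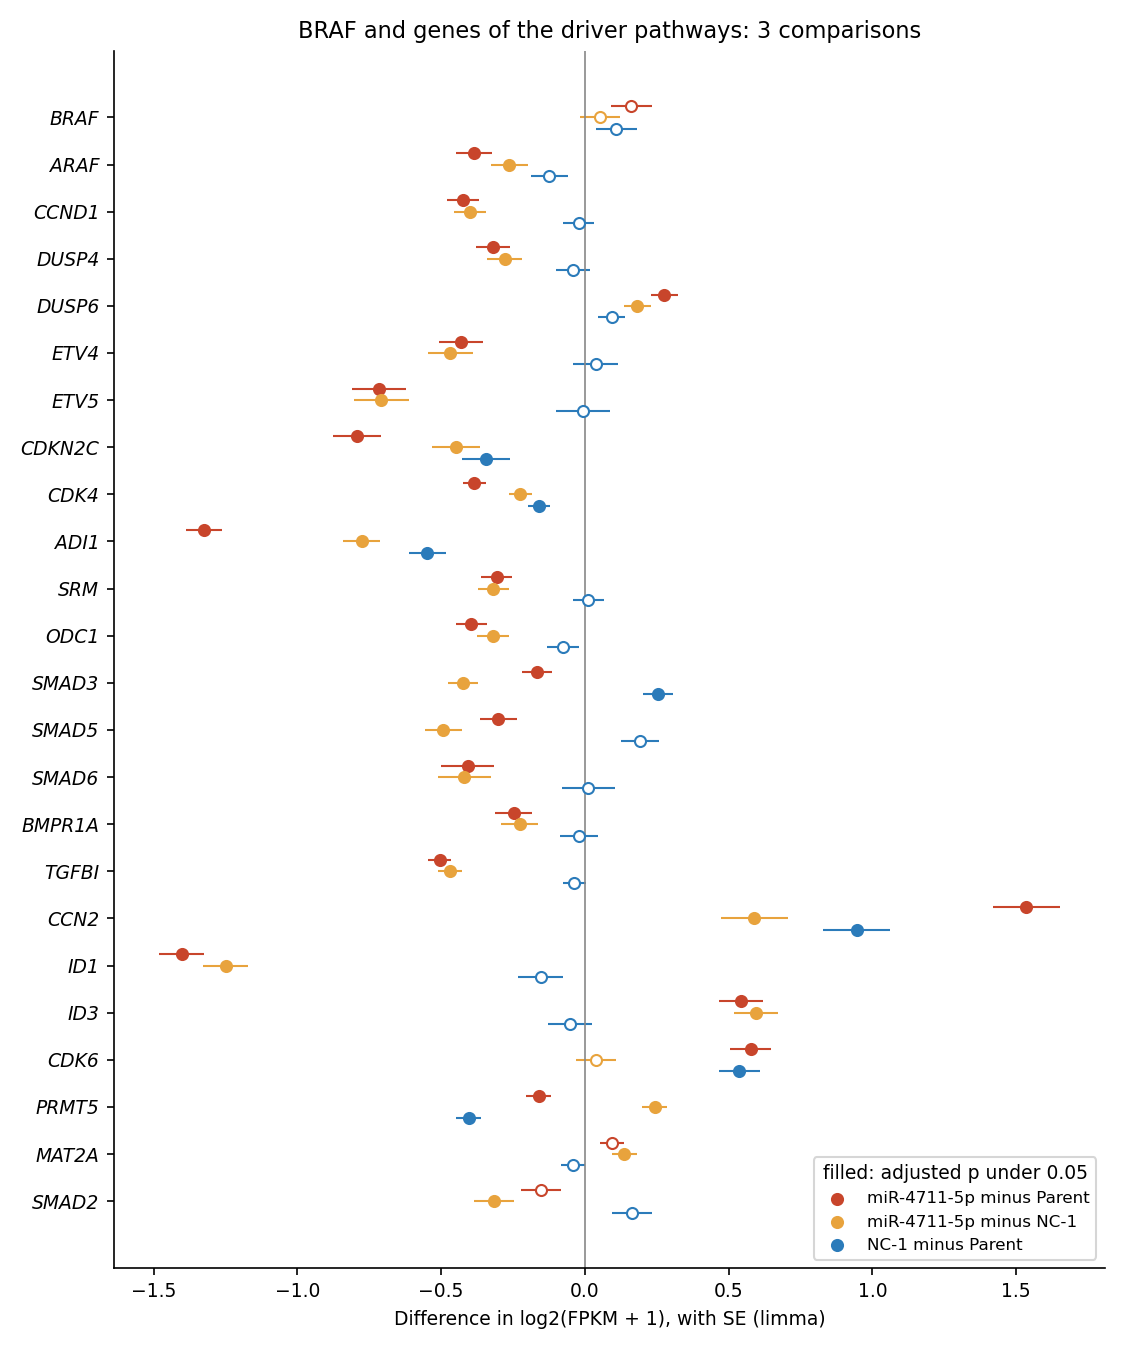
Difference in log2(FPKM + 1) (horizontal axis) of BRAF and 23 partner genes in 3 comparisons, with SE from limma and filled points where the adjusted p was under 0.05. BRAF was called in none of them, ADI1 and ID1 lay furthest below 0, and CCN2 furthest above. The comparisons share libraries in pairs.

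The libraries resembled each other in makeup. Between 16597 and 17305 symbols were above 0, and the 10 highest took 6.54% to 7.12% of the summed FPKM. Relative depth, from the step between low values, was 0.751 to 1.21 of that of Parent replicate 1 and highest in the 2 miR-4711-5p libraries, which also had the most symbols above 0, so values near 0 are most easily seen there. The number of reads is not known. Epithelial identity was checked with 6 markers of ductal epithelium (KRT7, KRT8, KRT18, KRT19, EPCAM and CDH1), all of which were expressed in every library. The labelled pancreatic origin was not tested by these markers. Against NC-1 3 of the 6 rose with miR-4711-5p (KRT8, KRT18 and EPCAM, by 0.24 to 0.33) and 3 fell (KRT7, KRT19 and CDH1, the first not on the TPM scale, adjusted p = 0.0649), and against Parent KRT18 rose and KRT19 and CDH1 fell. KRT19 was at 1700 and 1559 FPKM in Parent, 1294 and 1254 in NC-1 and 890.1 and 912 with miR-4711-5p. CDH1, the gene of E-cadherin, was at 114 and 117 FPKM in Parent, 109 and 110 in NC-1 and 28.3 and 30.9 with miR-4711-5p. The part of these markers in the results on SMAD genes was not tested. Of the 16 markers of acinar cells, fibroblasts, leukocytes and endothelium, PRSS1, COL1A1 and CDH5 passed 1 FPKM in at least 1 library. The summed acinar markers were at 0.73 to 1.57 FPKM in Parent, 2.62 to 2.73 in NC-1 and 3.18 to 5.10 with miR-4711-5p, nearly all of it PRSS1, with CELA3A and PNLIP at 0 throughout. The summed endothelial markers were at 1.33 to 1.39, 3.23 to 3.53 and 0.649 to 0.775 FPKM. The summed fibroblast markers lay between 1.29 and 2.42 FPKM and the summed leukocyte markers at or under 0.257 FPKM. The part of these markers in the results was not tested.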

How the data were processed

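RNA-seq of BxPC-3 was analysed from the deposited FPKM, the only unit used. Per the methods, the authors made stranded mRNA libraries, read 75 bases single-end, aligned these to hg19 (TopHat with Bowtie2, SAMtools) and obtained FPKM from Cuffnorm. The submitters' processing notes name TopHat2 2.1.1, Bowtie2 2.3.5.1, SAMtools 1.2 and Cufflinks 2.2.1, which differ in part from the methods. They also list Cuffdiff, without a version, where the methods name Cuffnorm, so which program gave the FPKM is not settled here. The annotation, the strand option and the library-size option are not given in the sources used here. FPKM are scaled to each library, so a change in a few abundant genes, or another scale, shifts all values. They hold no counts, and no interval of counting error is given.

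From FPKM onward, Python 3.11.15, pandas 2.3.3, numpy 2.4.6, matplotlib 3.10.9, R 4.3.3 and limma 3.58.1 were used. The 12040 genes averaging 1 FPKM or more were fitted on log2(FPKM + 1) with limma with a trend, all 3 groups in 1 fit (3 residual and 4.15 prior degrees of freedom), two-sided, with Benjamini-Hochberg adjustment over all genes at 0.05. Fold changes on this scale understate those of low genes. Ratios are of mean FPKM. On simulated data with 12040 genes, the comparison of miR-4711-5p with Parent recovered 2.39% of log2 changes of 0.2, 39.7% of 0.4 and 81.5% of 0.8, with 2.82% false calls.

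The 5 genes and all lists were chosen with earlier results of these data known. From 6 lists (kinases beside BRAF, ERK-responsive genes, cell-cycle control, MTAP pathway, SMAD family, SMAD targets) the text names the genes called in both miR-4711-5p comparisons in the same direction and those on which the role of a driver gene turns (ARAF, CDK4, CDK6, CDKN2C, PRMT5, MAT2A, SMAD2 and SMAD3), others as said. Some genes of these lists are not reported here. Neighbours are protein-coding genes of GENCODE v44 on GRCh37 within 3 Mb. Alternatives were 0.1 as pseudocount, no filter, a filter at 5 FPKM, median-of-ratios factors, the TPM scale, only the groups compared, the replicate number as a block, no trend, and each library left out. No file was left out.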

Additional observations from a re-analysis of the deposited data

How the results depend on the processing

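As deposited, 5230 genes were called between miR-4711-5p and Parent, 4763 between miR-4711-5p and NC-1 and 3279 between NC-1 and Parent. With 1 library left out, these ranged from 3164 to 5135, from 2815 to 4639 and from 1355 to 2296. Without a filter, 2165 genes were called between NC-1 and Parent. On the TPM scale the mean of BRAF was 13.3 in Parent, 15.3 in NC-1 and 16.6 with miR-4711-5p in TPM, another unit, and its difference of 0.30 between miR-4711-5p and Parent passed the test (adjusted p = 0.0174). Over the other 7 settings that keep all libraries, that difference was 0.16 to 0.18 and did not pass, and with 1 library left out it ranged from 0.09 to 0.23. BRAF against NC-1 ranged from 0.05 to 0.11, or from 0.02 to 0.08 with 1 library left out, and NC-1 against Parent from 0.11 to 0.20, or from 0.04 to 0.18. No value changed sign in any setting. Of the calls of the 23 partner genes plotted with BRAF, repeated under each setting, 621 repeats passed the test and 70 did not. These repeats include fits that left out a library of the group not compared. Calls of other genes named in the text, such as MAPK3, MDM2 and AMD1, are not in these counts. Called genes were 43.1% higher as deposited against 69.2% on the TPM scale (miR-4711-5p and Parent), 46.5% against 58.3% (miR-4711-5p and NC-1), and 44.4% against 70.1% (NC-1 and Parent).

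The replicate numbers of the labels did not pair the libraries: the differences between replicates 1 and 2 had correlations of 0.061, 0.00301 and -0.00892 between the groups. With the replicate block, 4983, 4564 and 2864 genes were called, and BRAF stayed outside the threshold (adjusted p of 0.138, 0.621 and 0.329). With 2 libraries a group and unknown read numbers, changes as small as those of BRAF were mostly missed in the simulation, in which few genes changed. In the data, some differences of that size were called, such as PRMT5 against Parent at -0.16 (limma, adjusted p = 0.022). A value listed at 0 sets no upper limit on a level.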
